A study of Mus musculus with 9 samples.

Results

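The genes described here encode subunits of RNA polymerases I, II and III. They are all genes whose symbol on the array platform starts with Polr1, Polr2 or Polr3 and that have a probe set with a single symbol, read from 1 probe set per gene, the one with the highest mean over the 9 arrays. That rule gave 27 of the 22180 genes tested: 5 Polr1, 13 Polr2 and 9 Polr3 genes. Affymetrix arrays read the RNA of mouse embryonic stem cells of the NG4 line (129/Sv), which carries a Nanog-GFP reporter and was cultured in medium with LIF on gelatin. All 3 groups received a pLKO.1-based lentivirus and 72 h of puromycin at 2 μg/mL: shControl carried a control hairpin, shPhf5a a hairpin against Phf5a, a subunit of the SF3b splicing complex, and shPaf1 a hairpin against Paf1, a subunit of the Paf1 complex that travels with elongating Pol II. Each group has 3 arrays and 1 hairpin, so that an effect of a hairpin's target and an off-target effect of the hairpin cannot be told apart. The labels name 1 cell line and do not say whether replicates were separate transductions. The p-values therefore reflect only how far these 9 samples spread, and that spread may be technical.

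Pol I transcribes the long ribosomal RNA precursor, Pol II the messenger RNAs, and Pol III transfer RNAs and other short RNAs. The largest and the second-largest subunit of each enzyme form its catalytic centre, and the other subunits surround them. Some small subunits belong to all 3 enzymes (Polr2e, Polr2f, Polr2h, Polr2k and Polr2l, in spite of their Pol II symbols), and Polr1c and Polr1d belong to Pol I and Pol III. The members were therefore grouped by the enzymes their products sit in: 3 found only in Pol I, 2 shared by Pol I and Pol III, 7 found only in Pol II, 4 shared by all 3 enzymes, and 9 found only in Pol III. Polr2m encodes a protein that binds Pol II and is no core subunit, and Polr2d-ps2 is annotated as a pseudogene.

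Array medians lay between 6.22 and 6.31 log2 units. Both targets were lowered: Phf5a fell to 42.4% of the control mean in shPhf5a (limma adjusted p = 0.00024) and Paf1 to 38.2% in shPaf1 (adjusted p = 1.73e-06), while Phf5a also fell to 67.2% in shPaf1 (adjusted p = 0.0183) and Paf1 to 84.3% in shPhf5a (adjusted p = 0.0267). The mean level of 8 embryonic stem cell markers was 10.3 to 10.4 log2 units in the shControl arrays, 9.86 to 10.1 in shPhf5a and 9.81 to 9.86 in shPaf1, with 6 of 8 called lower in each knockdown. Trophectoderm markers were called higher in 5 of 6 in shPhf5a and 4 of 6 in shPaf1, with array means of 6.97 to 7.14 in shControl, 8.03 to 8.36 in shPhf5a and 8.36 to 8.51 in shPaf1. Primitive endoderm markers were called higher in 3 and 4 of 6, with array means of 7.64 to 7.75, 8.13 to 8.57 and 8.15 to 8.20. Of 7 fibroblast markers 0 were called in shPhf5a and 2 higher in shPaf1, with array means of 5.85 to 5.88, 5.80 to 5.86 and 6.01 to 6.08. All 7 changed upward in shPaf1 (by 0.0016 to 0.57 log2 units), whereas in shPhf5a 2 changed upward and 5 downward. Lum, a matrix gene picked from the 7 after its values were seen, was dim in every group (group means of 4.81 to 4.86). Of the 3 macrophage and blood markers measured, 1 was called lower in shPhf5a and 1 higher in shPaf1, with array means of 6.81 to 6.97, 6.62 to 6.77 and 6.95 to 7.04. The part of these shifts in cell markers in the values of the polymerase genes was not tested, and fewer cells of a type and less RNA per cell cannot be told apart in such bulk samples. Among the shPhf5a arrays, replicate 2 kept the most Phf5a (11.10 log2 units, against 10.40 and 10.60). It stood nearest to the control mean for 17 of the 19 polymerase genes called in that comparison. Those 19 were called from the same arrays, and the count over all called genes was not made.

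Of the 27 polymerase genes 12 fell in both knockdowns, while the genes of the largest subunits rose or were not called. The largest subunits were set apart only after the values were seen. In shPhf5a 16 of 27 members were lower and 3 higher, and 8 did not pass (limma, Benjamini-Hochberg adjusted p under 0.05 over all genes). The share called, 70.4%, stands beside 37.4% of all genes tested and 62.1% of the 11090 genes above the median level (6.70 log2 units), to which 26 of the 27 members belong. The share called lower was 59.3%, beside 20.7% of all genes and 35.2% of the genes above the median level, and the share called higher was 11.1%, beside 16.7% and 26.9%. Without regard to a test, 3 members lay above all control arrays and 18 below them in shPhf5a, beside 19.9% and 25.9% of all genes (45.8% in either direction). In shPaf1 13 members were lower and 4 higher, and 10 did not pass. There the share called was 63.0%, beside 35.8% of all genes and 59.9% of those above the median level, and the share called lower was 48.1%, beside 17.8% and 30.7%. The share called higher in shPaf1 was 14.8%, beside 18.0% and 29.2%. There 4 members lay above all control arrays and 17 below them, beside 23.2% and 25% of all genes (48.3% in either direction). The share of members called was thus close to that of the brighter genes in both knockdowns, with more of it lower and less of it higher than among those genes. The median change of the members was -0.30 log2 units in shPhf5a and -0.18 in shPaf1, beside -0.03 and -0.01 over all genes and -0.05 and -0.02 over the genes above the median level. Both knockdowns are set against the same control arrays, so that the changes in one are not independent of those in the other. Beside the 12 lower in both, 2 members were higher in both and 0 were called in opposite directions, and 5 (Polr2d-ps2, Polr2k, Polr2m, Polr3c and Polr3e) were called in neither. The shares of all genes with such joint calls were not counted, so whether 12 of 27 is more than among other genes is not known. Without shPhf5a replicate 2 the counts were 18 lower and 3 higher in shPhf5a, and 15 lower and 4 higher in shPaf1. The shares of all genes rose there too, to 22.4% lower and 17.3% higher in shPhf5a, and 19.7% and 19.3% in shPaf1.

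**Figure D1:**
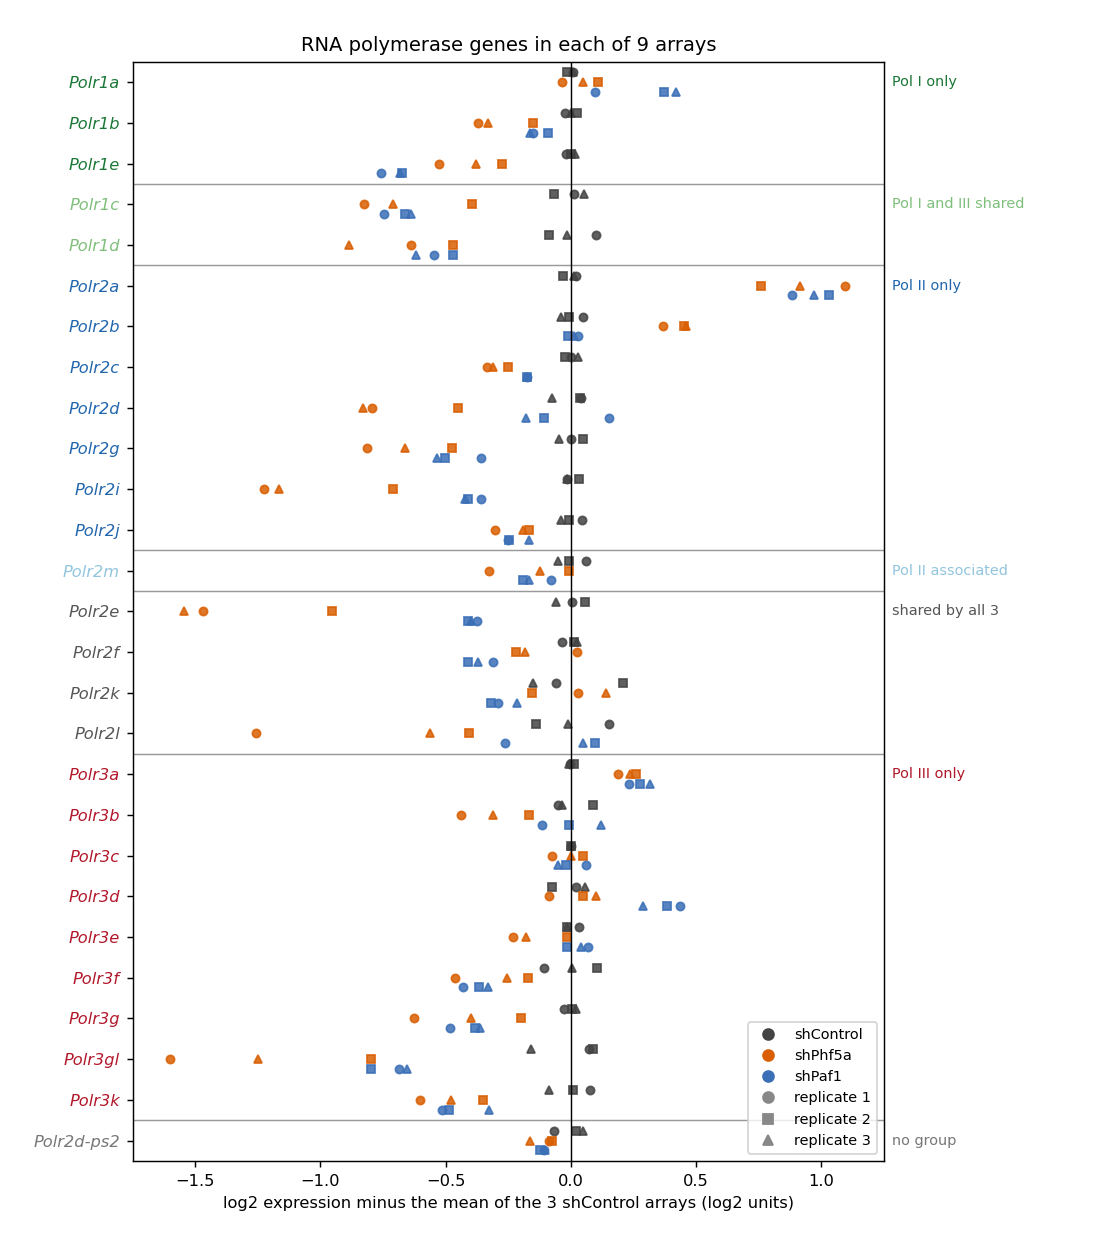
Log2 expression of each of the 27 polymerase genes in each array, as the difference from the mean of the 3 shControl arrays (x axis, log2 units). Colours mark the hairpin and symbols the replicate, and genes are ordered by the enzymes their products belong to. Polr2a lies to the right of the control in all 6 knockdown arrays (log2 levels of 11.48 to 11.82, against 10.69 to 10.75), and most other genes lie to the left of the control.

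Polr2a, which encodes the largest subunit of Pol II and carries the C-terminal domain that is phosphorylated during elongation, changed upward more than any other member in both knockdowns. Its log2 level was 10.75, 10.69 and 10.74 in shControl replicates 1, 2 and 3, 11.82, 11.48 and 11.64 in shPhf5a, and 11.61, 11.75 and 11.70 in shPaf1. All 6 knockdown arrays lay above the 3 control arrays. Polr2a rose by 0.92 log2 units in shPhf5a (SE 0.08, 1.90-fold, adjusted p = 2.66e-05), and by 0.96 in shPaf1 (SE 0.08, 1.95-fold, adjusted p = 1.42e-05). Polr2b, which encodes the second-largest subunit and completes the active site, had log2 levels of 10.87, 10.81 and 10.78 in shControl, 11.19, 11.27 and 11.28 in shPhf5a, and 10.85, 10.81 and 10.83 in shPaf1. It stood above the control arrays only in the shPhf5a arrays, where it rose by 0.43 (SE 0.05, 1.34-fold, adjusted p = 0.000102), and in shPaf1 its change was 0.01 (95% interval from -0.10 to 0.12, adjusted p = 0.92).

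The other 5 genes of subunits found only in Pol II fell in shPhf5a, and 4 of them in shPaf1. Polr2i, a small subunit at the edge of the enzyme that serves in proofreading, had log2 levels of 9.40, 9.45 and 9.41 in shControl, 8.19, 8.71 and 8.25 in shPhf5a, and 9.06, 9.01 and 8.997 in shPaf1. The 3 groups did not overlap, with shPhf5a lowest. Its fall was 1.03 log2 units in shPhf5a (SE 0.11, 2.05-fold, adjusted p = 9.71e-05) and 0.40 in shPaf1 (SE 0.11, 1.32-fold, adjusted p = 0.0206). Polr2d and Polr2g encode the pair that forms the stalk of Pol II, and they parted in shPaf1. Polr2d had log2 levels of 10.76, 10.76 and 10.65 in shControl, 9.93, 10.27 and 9.89 in shPhf5a, and 10.87, 10.61 and 10.54 in shPaf1, so that the shPaf1 arrays overlapped the control. Its fall was 0.69 in shPhf5a (SE 0.11, adjusted p = 0.000886), and its change in shPaf1 was -0.05 (95% interval from -0.30 to 0.21, adjusted p = 0.817). Polr2g stood at 11.20, 11.25 and 11.15 in shControl, 10.38, 10.72 and 10.54 in shPhf5a, and 10.84, 10.70 and 10.66 in shPaf1, and was below the control in all 6 knockdown arrays. It fell by 0.65 in shPhf5a (SE 0.08, adjusted p = 0.000241) and by 0.46 in shPaf1 (SE 0.08, adjusted p = 0.00168).

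Polr2c and Polr2j encode the pair on which the enzyme is assembled, and their falls were small. Polr2c fell by 0.30 in shPhf5a (SE 0.04, adjusted p = 0.000468) and by 0.18 in shPaf1 (SE 0.04, adjusted p = 0.00958). Polr2j fell by 0.22 in both (SE 0.05, adjusted p = 0.0084 in shPhf5a and 0.00828 in shPaf1). Polr2m was at -0.15 in shPhf5a and at -0.15 in shPaf1 (adjusted p = 0.168 and 0.194), and the pseudogene Polr2d-ps2, with dim levels of 5.34 to 5.55 on all arrays, was at -0.11 in both (adjusted p = 0.116 and 0.112). The calls of Polr2c in shPaf1 (-0.05, adjusted p = 0.468) and of Polr2j in shPhf5a (-0.13, adjusted p = 0.0578) were lost after quantile normalization. Polr2m passed in shPhf5a without shPhf5a replicate 2 (-0.22, adjusted p = 0.0325). Polr2d-ps2 passed after centring of each array in shPhf5a (-0.14, adjusted p = 0.0497) and in shPaf1 (-0.17, adjusted p = 0.0205), and with array weights in shPhf5a (-0.14, adjusted p = 0.0435). The call of Polr2i in shPaf1 was lost without shControl replicate 1, 2 or 3 or shPaf1 replicate 2 or 3 (adjusted p = 0.0532, 0.0659, 0.0522, 0.0623 and 0.0631).

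The small subunits shared by all 3 enzymes did not move as a unit. Polr2e, which sits at the jaw of the enzyme that grips incoming DNA, changed downward more than any other member in shPhf5a. Its log2 level was 11.75, 11.80 and 11.68 in shControl, 10.27, 10.79 and 10.20 in shPhf5a, and 11.37, 11.33 and 11.34 in shPaf1, 3 groups without overlap. Polr2e fell by 1.32 log2 units in shPhf5a (SE 0.13, 2.50-fold, adjusted p = 4.97e-05). The shPaf1 arrays gave a fall of 0.40 (SE 0.13, 1.31-fold, adjusted p = 0.0375), a call that was lost without any single array of shControl (adjusted p = 0.0936, 0.111 and 0.0673 without replicates 1, 2 and 3) or of shPaf1 (0.0837, 0.0993 and 0.0919). Quantile normalization (0.0754) and the test of all probe sets (0.0508) ended that call of Polr2e as well.

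Polr2l, which takes part in holding the assembly pair together, spread more than its partners: 7.67, 7.38 and 7.505 in shControl, 6.26, 7.11 and 6.96 in shPhf5a, and 7.25, 7.61 and 7.57 in shPaf1. The shPhf5a arrays lay below the control, with replicate 1 far lowest, and the shPaf1 arrays overlapped it. Its fall was 0.74 in shPhf5a (SE 0.20, adjusted p = 0.0138), 0.48 without shPhf5a replicate 1 (adjusted p = 0.0136), and 0.67 without shControl replicate 1, where the call of Polr2l was lost (adjusted p = 0.0567). In shPaf1 its change was -0.04 (95% interval from -0.48 to 0.40, adjusted p = 0.915). Polr2f showed the other order, with log2 levels of 12.40, 12.45 and 12.46 in shControl, 12.46, 12.22 and 12.25 in shPhf5a, and 12.12, 12.02 and 12.06 in shPaf1. It fell by 0.37 in shPaf1 (SE 0.07, adjusted p = 0.00178) and was at -0.13 in shPhf5a (adjusted p = 0.186), where it passed without shPhf5a replicate 1 (-0.20, adjusted p = 0.015).

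Polr2k is read by 4 probe sets. The brightest was at 0.00 in shPhf5a (adjusted p = 0.983) and at -0.27 in shPaf1 (adjusted p = 0.0572), and the shPaf1 arrays lay below those of the control. The others stood at -0.41, -0.37 and -0.15 in shPaf1 (adjusted p = 0.0364, 0.0794 and 0.551 over all probe sets). The last of these was dim, at 5.15 to 5.76 on all arrays. In shPhf5a they stood at -0.06, -0.14 and -0.14 (adjusted p = 0.782, 0.502 and 0.534). The call of Polr2k in shPaf1 passed in 7 of 18 other settings, among them the mean over its 4 probe sets (-0.30, adjusted p = 0.0329), and passed without shControl replicate 3 (-0.35, adjusted p = 0.0316) or without shPhf5a replicate 2 (-0.27, adjusted p = 0.033). Polr2h was no member, since both of its probe sets also carry the symbol of the pseudogene Gm7511. Those probe sets were lower by 0.42 and 0.62 log2 units in shPhf5a (adjusted p = 0.00388 and 0.0108 over all probe sets) and stood at -0.19 and -0.52 in shPaf1 (adjusted p = 0.134 and 0.0237).

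Of the 5 Polr1 genes, 4 fell in shPhf5a and 3 in shPaf1, and the gene of the largest Pol I subunit did not fall in either. Polr1a, which holds the active site together with Polr1b, had log2 levels of 10.15, 10.13 and 10.16 in shControl, 10.11, 10.25 and 10.19 in shPhf5a, and 10.24, 10.52 and 10.56 in shPaf1. The shPhf5a arrays overlapped the control (change 0.04, 95% interval from -0.14 to 0.22, adjusted p = 0.761). In shPaf1 Polr1a rose by 0.30 (SE 0.08, 1.23-fold, adjusted p = 0.0162). That call was lost without shControl replicate 2 (adjusted p = 0.0527) and without either of shPaf1 replicates 2 and 3 (0.0675 and 0.0662). Polr1b stood at 10.26, 10.31 and 10.28 in shControl, 9.92, 10.14 and 9.96 in shPhf5a, and 10.14, 10.19 and 10.12 in shPaf1. It fell by 0.28 in shPhf5a (SE 0.06, adjusted p = 0.00456), and was at -0.14 in shPaf1 (adjusted p = 0.123), where it passed in 4 of 18 other settings, among them without shPhf5a replicate 2 (adjusted p = 0.0338).

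Polr1e, of the pair of Pol I subunits that resembles an initiation factor of Pol II, had log2 levels of 8.64, 8.66 and 8.68 in shControl, 8.13, 8.38 and 8.28 in shPhf5a, and 7.90, 7.99 and 7.98 in shPaf1. The 3 groups did not overlap, and shPaf1 was lowest. The fall was 0.39 in shPhf5a (SE 0.06, adjusted p = 0.000881) and 0.71 in shPaf1 (SE 0.06, 1.63-fold, adjusted p = 2.39e-05). Polr1c and Polr1d encode the pair on which Pol I and Pol III are assembled, the counterpart of Polr2c and Polr2j. Polr1c had log2 levels of 11.50, 11.42 and 11.54 in shControl, 10.66, 11.09 and 10.78 in shPhf5a, and 10.74, 10.82 and 10.85 in shPaf1. Polr1d had 9.30, 9.11 and 9.19 in shControl, 8.56, 8.73 and 8.32 in shPhf5a, and 8.65, 8.73 and 8.58 in shPaf1. Both genes stood below the control in all 6 knockdown arrays. Polr1c fell by 0.64 in shPhf5a (SE 0.10, adjusted p = 0.0006) and by 0.68 in shPaf1 (SE 0.10, adjusted p = 0.000389), and Polr1d by 0.67 (SE 0.10, adjusted p = 0.000507) and by 0.55 (SE 0.10, adjusted p = 0.00156).

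The platform gives 4 further subunits under other symbols, which the rule does not cover. Twistnb, Cd3eap and Znrd1 encode Pol I subunits and Crcp a stalk subunit of Pol III, and all 4 fell in both knockdowns. The falls of Twistnb, Cd3eap, Znrd1 and Crcp were 0.67, 0.68, 0.70 and 0.42 log2 units in shPhf5a (SE 0.07 to 0.12, adjusted p = 0.00142 or less), and 0.51, 0.48, 0.86 and 0.57 in shPaf1 (SE 0.07 to 0.12, adjusted p = 0.0111 or less).

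Among the genes of Pol III that of the largest subunit rose in both knockdowns. Polr3a had log2 levels of 9.68, 9.70 and 9.68 in shControl, 9.88, 9.95 and 9.92 in shPhf5a, and 9.92, 9.96 and 10.005 in shPaf1, and lay above the control in all 6 knockdown arrays. The rise was 0.23 in shPhf5a (SE 0.04, 1.17-fold, adjusted p = 0.00256) and 0.27 in shPaf1 (SE 0.04, 1.21-fold, adjusted p = 0.00083). Polr3b, its catalytic partner, stood at 10.83, 10.97 and 10.85 in shControl, 10.44, 10.72 and 10.57 in shPhf5a, and 10.77, 10.87 and 11.00 in shPaf1. It fell by 0.31 in shPhf5a (SE 0.08, adjusted p = 0.0154), and was at 0.00 in shPaf1 (95% interval from -0.19 to 0.18, adjusted p = 0.992). The call of Polr3b in shPhf5a was lost without shControl replicate 2 (-0.26, adjusted p = 0.063), without shPhf5a replicate 1 (-0.24, adjusted p = 0.0515) and after quantile normalization (-0.21, adjusted p = 0.0521).

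Polr3d and Polr3e form a pair that resembles an initiation factor of Pol II. Polr3d had log2 levels of 8.90, 8.81 and 8.94 in shControl, 8.80, 8.93 and 8.98 in shPhf5a, and 9.32, 9.27 and 9.17 in shPaf1, so that only the shPaf1 arrays stood apart from the control. It rose by 0.37 in shPaf1 (SE 0.07, 1.29-fold, adjusted p = 0.0015) and was at 0.02 in shPhf5a (95% interval from -0.13 to 0.17, adjusted p = 0.853). Polr3e was at -0.14 in shPhf5a (adjusted p = 0.0979) and at 0.03 in shPaf1 (adjusted p = 0.76). In shPhf5a it passed without shPhf5a replicate 2 (-0.21, adjusted p = 0.00921), with array weights (-0.17, adjusted p = 0.0229) and after centring of each array (-0.17, adjusted p = 0.0408).

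Polr3c, Polr3f and either Polr3g or Polr3gl make up the trimer with which Pol III opens its promoters. Polr3c stayed within 9.12 to 9.26 log2 units on all 9 arrays (changes of -0.01 and 0.00, 95% intervals from -0.12 to 0.10 and from -0.12 to 0.11). Polr3f fell by 0.30 in shPhf5a (SE 0.08, adjusted p = 0.0165), a call lost without shControl replicate 2 (-0.24, adjusted p = 0.0677), and by 0.38 in shPaf1 (SE 0.08, adjusted p = 0.00478). Polr3k, the subunit that serves in termination, fell by 0.48 (SE 0.08, adjusted p = 0.000951) and by 0.44 (SE 0.08, adjusted p = 0.00143).

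Polr3g and Polr3gl are paralogs that take the same place in alternative forms of Pol III, and Polr3g is known as the form of pluripotent cells, whereas Polr3gl is the form of most differentiated cells. Both fell in both knockdowns. Polr3g had log2 levels of 9.80, 9.84 and 9.85 in shControl, 9.21, 9.63 and 9.43 in shPhf5a, and 9.35, 9.45 and 9.47 in shPaf1, falls of 0.41 (SE 0.09, adjusted p = 0.00614) and 0.41 (SE 0.09, adjusted p = 0.00605). Polr3gl had 7.88, 7.90 and 7.65 in shControl, 6.21, 7.01 and 6.56 in shPhf5a, and 7.12, 7.01 and 7.15 in shPaf1, falls of 1.22 (SE 0.17, 2.32-fold, adjusted p = 0.000332) and 0.71 (SE 0.17, 1.64-fold, adjusted p = 0.00712). Polr3gl changed downward more than any other member in shPaf1 and was next to Polr2e in shPhf5a. The difference between the paralogs within an array, set to the control mean, was 0.97, 0.60 and 0.85 log2 units in shPhf5a replicates 1, 2 and 3 and 0.20, 0.42 and 0.29 in shPaf1, against -0.10, -0.08 and 0.18 in shControl. Its mean differed from that of the control by 0.81 in shPhf5a and by 0.31 in shPaf1, where the lowest array (0.20) lay just above the highest control array (0.18). The two-sided exact permutation test gave p = 0.1 for both, the smallest p that 3 against 3 arrays allow. It could not pass the threshold whatever the values, so it does not decide whether the paralogs fell unequally.

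The start sites of 4 members are shown because these genes mark the range of the responses: Polr2a rose most, Polr2e fell most in shPhf5a, and Polr3g and Polr3gl are the paralog pair of Pol III. Each sequence runs from 250 bases before to 50 bases after the start of the gene in RefSeq (build GRCm38.p6), in the direction of transcription. Capitals mark matches, on either strand, to the GC box GGGCGG, the ETS motif CCGGAAG, the NRF1 motif, the CCAAT box CCAAT, the TATA box TATAAA and the YY1 motif AAGATGG.
Polr2a, chr11:69758584-69758883, minus strand: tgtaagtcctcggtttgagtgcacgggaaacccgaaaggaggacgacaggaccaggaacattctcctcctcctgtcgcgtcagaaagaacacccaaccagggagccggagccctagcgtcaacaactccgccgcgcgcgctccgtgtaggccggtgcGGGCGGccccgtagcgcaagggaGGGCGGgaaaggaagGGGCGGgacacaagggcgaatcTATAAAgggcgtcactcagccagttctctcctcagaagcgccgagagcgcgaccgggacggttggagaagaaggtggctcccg
Polr2e, chr10:80039610-80039909, minus strand: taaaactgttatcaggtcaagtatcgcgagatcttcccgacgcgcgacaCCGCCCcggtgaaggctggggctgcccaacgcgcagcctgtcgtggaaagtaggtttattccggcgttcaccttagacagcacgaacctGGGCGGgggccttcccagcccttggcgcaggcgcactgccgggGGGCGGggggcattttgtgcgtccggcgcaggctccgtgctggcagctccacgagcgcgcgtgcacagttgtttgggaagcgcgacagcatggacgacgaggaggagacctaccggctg
Polr3g, chr13:81710964-81711263, minus strand: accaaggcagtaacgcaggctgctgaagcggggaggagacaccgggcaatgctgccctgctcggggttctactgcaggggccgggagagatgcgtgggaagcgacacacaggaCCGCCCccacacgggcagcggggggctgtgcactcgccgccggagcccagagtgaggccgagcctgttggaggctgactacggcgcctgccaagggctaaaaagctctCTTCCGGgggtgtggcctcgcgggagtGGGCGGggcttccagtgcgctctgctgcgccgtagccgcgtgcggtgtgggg
Polr3gl, chr3:96594132-96594431, minus strand: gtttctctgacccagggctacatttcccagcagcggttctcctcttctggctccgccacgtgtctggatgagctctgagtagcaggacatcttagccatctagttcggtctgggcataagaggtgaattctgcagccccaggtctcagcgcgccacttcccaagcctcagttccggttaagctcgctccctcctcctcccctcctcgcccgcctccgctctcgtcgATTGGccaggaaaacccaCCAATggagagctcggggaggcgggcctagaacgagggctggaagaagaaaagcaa
Polr2a holds 3 GC boxes and a TATA box, Polr2e holds 3 GC boxes, Polr3g holds 2 GC boxes and 1 ETS motif, and Polr3gl holds 2 CCAAT boxes and none of the other motifs. RefSeq start sites were found for 21 of the 27 members, with 2 for Polr2m, and those not matched were Polr2d, Polr2d-ps2, Polr2g, Polr2k, Polr3a and Polr3d. Of these 22 windows of 300 bases 13 held a GC box (59.1%, against 35.7% of all 32851 windows in the table), 7 an ETS motif (31.8% against 8.86%), 7 a CCAAT box (31.8% against 37.4%) and 2 a TATA box (9.09% against 13.6%). No window of a member held the NRF1 motif or the YY1 motif (0.971% and 6.34% of all windows). The 2 windows with a TATA box were those of Polr2a and Polr2c, of which Polr2a rose and Polr2c fell. The median GC content was 60.0% in the members' windows and 52.7% in all, with 22 and 7 CpG sites. None of the motifs spelled out contains another, and a match describes the letters only.

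The enzymes were compared by the subunits found in 1 enzyme only, as counts and medians without a test, since genes are not replicates. In shPhf5a the medians lay close together: -0.28 log2 units for Pol I (3 genes, 2 lower and 0 higher), -0.30 for Pol II (7 genes, 5 lower and 2 higher) and -0.30 for Pol III (9 genes, 5 lower and 1 higher), beside -0.03 over all genes. In shPaf1 they were -0.14 for Pol I (1 lower and 1 higher), -0.18 for Pol II (4 lower and 1 higher) and 0.00 for Pol III (4 lower and 2 higher), beside -0.01 over all genes. After quantile normalization the shPaf1 medians were -0.075 for Pol I and -0.051 for Pol II, which turned their order. The Pol I medians cover only 3 of the 6 listed subunits found in Pol I alone. Twistnb, Cd3eap and Znrd1, left out by their symbols, stood at -0.67, -0.68 and -0.70 in shPhf5a and at -0.51, -0.48 and -0.86 in shPaf1. Each lay below the medians of all 3 enzymes, so the closeness in shPhf5a holds only for genes under the rule. Among the members, the 2 genes shared by Pol I and Pol III had the lowest medians of any group in both knockdowns, -0.65 and -0.61. The 4 genes shared by all enzymes had medians of -0.43 and -0.32, with 2 lower and 0 higher in each. Within the enzymes the changes ranged from -0.39 to 0.04 (Pol I), from -1.03 to 0.92 (Pol II) and from -1.22 to 0.23 (Pol III) in shPhf5a, and from -0.71 to 0.30, from -0.46 to 0.96 and from -0.71 to 0.37 in shPaf1, so that the spread within an enzyme was wider than the distance between enzymes. Counted with every subunit that an enzyme shares, 6 of the 9 measured members of Pol I were lower and 0 higher in shPhf5a, 7 and 2 of 11 in Pol II, and 9 and 1 of 15 in Pol III. In shPaf1 the same counts were 5 and 1, 6 and 1, and 8 and 2. The shares called were thus 66.7%, 81.8% and 66.7% in shPhf5a and 66.7%, 63.6% and 66.7% in shPaf1. For the subunits found in 1 enzyme only they were 66.7%, 100% and 66.7%, and 66.7%, 71.4% and 66.7%. Among all genes 37.4% and 35.8% were called, and among those above the median level 62.1% and 59.9%. Of the latter 35.2% and 30.7% were lower, and 26.9% and 29.2% higher.

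**Figure D2:**
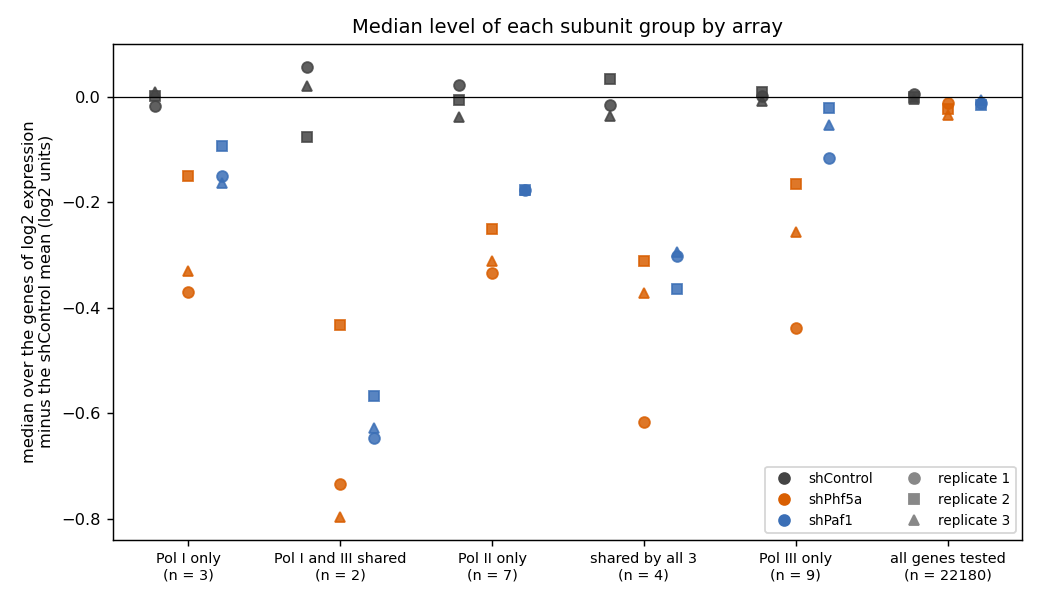
Median over the genes of each subunit group of log2 expression minus the shControl mean (y axis, log2 units), for each of the 9 arrays, with all genes tested at the right. Colours mark the hairpin and symbols the replicate, and n is the number of genes. Pol I and III shared subunits lie lowest, at -0.80 to -0.43 in shPhf5a and -0.65 to -0.57 in shPaf1, and shPhf5a replicate 2 is the highest of the shPhf5a arrays in each subunit group.

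The members were also split by role in the enzyme, a split chosen after the values were seen and given without a test. Of the 3 largest subunits (Polr1a, Polr2a and Polr3a) 2 rose in shPhf5a and 3 in shPaf1, with medians of 0.23 and 0.30 log2 units. Of all genes 16.7% and 18.0% were higher, and of those above the median level 26.9% and 29.2%. The call of Polr1a in shPaf1 was lost in 3 of 18 other settings. Of the 3 second-largest subunits (Polr1b, Polr2b and Polr3b) 2 fell and 1 rose in shPhf5a, and 0 of 3 were called in shPaf1, with medians of -0.28 and 0.00. Of the 19 other subunits 14 fell and 0 rose in shPhf5a, and 13 fell and 1 rose in shPaf1, with medians of -0.41 and -0.38. The share of these 19 called was 73.7% in both, beside 62.1% and 59.9% of the genes above the median level, of which 35.2% and 30.7% were lower. The single rise among those was that of Polr3d.

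**Figure D3:**
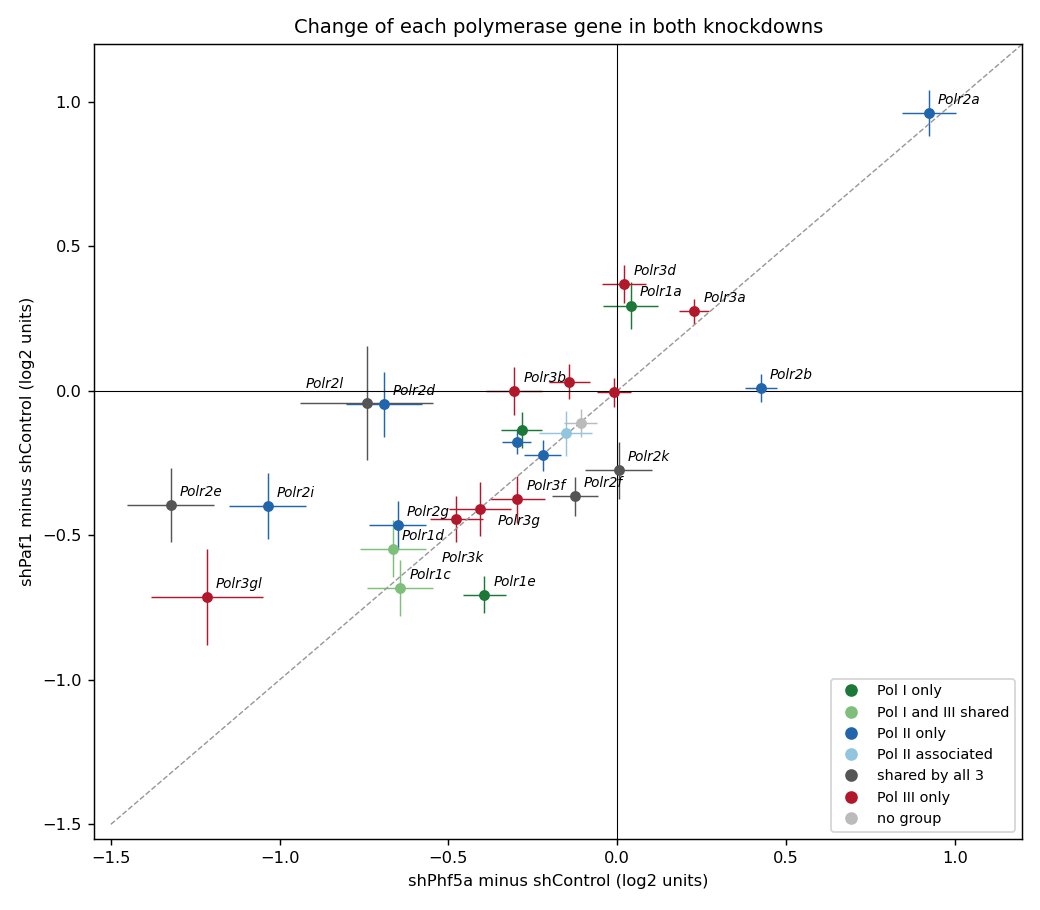
Change of each of the 27 polymerase genes in shPhf5a (x axis) and in shPaf1 (y axis) against the same 3 shControl arrays, in log2 units, with bars of 1 standard error and the line of equal change dashed. Colours mark the enzymes each product belongs to. Polr2a stands alone at the upper right (0.92 and 0.96), and Polr2e, Polr2i, Polr2l and Polr2d lie to the left of the line, with larger falls in shPhf5a.

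The knockdowns were also compared with each other, which asks which members differed between them. In shPhf5a 8 members were lower than in shPaf1 and 3 were higher, 40.7% of the members beside 29.0% of all genes and 48.1% of the genes above the median level. Of the members 7 lay below and 4 above all shPaf1 arrays (37.7% of all genes in either direction, 21.3% below and 16.3% above). The share called lower was 29.6% (16.3% of all genes and 27.4% of those above the median level) and the share called higher 11.1% (12.7% and 20.7%). The difference was -0.93 log2 units for Polr2e (SE 0.13, adjusted p = 0.00052), -0.65 for Polr2d (SE 0.11, adjusted p = 0.00192), -0.64 for Polr2i (SE 0.11, adjusted p = 0.00222) and -0.35 for Polr3d (SE 0.07, adjusted p = 0.003). Polr2b was higher in shPhf5a by 0.42 (SE 0.05, adjusted p = 0.000161) and Polr1e by 0.31 (SE 0.06, adjusted p = 0.00475). The call of each of these 6 genes held in every other setting run. For Polr2a the difference was -0.04 with a 95% interval from -0.22 to 0.14, for Polr3a -0.05 (from -0.15 to 0.05), for Polr1c 0.04 (from -0.18 to 0.26) and for Polr3g 0.00 (from -0.21 to 0.21).

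The other differences between the knockdowns were less firm. Polr2l was lower in shPhf5a by 0.70 (adjusted p = 0.0235), or by 0.44 without shPhf5a replicate 1 (adjusted p = 0.0251), and the call was lost without shPaf1 replicate 2 or 3 (adjusted p = 0.0864 and 0.0784) and in a fit of the 6 arrays alone (0.064). Polr3b was lower by 0.30 (adjusted p = 0.0205), lost without shPhf5a replicate 1 or 3 or shPaf1 replicate 2 or 3 (adjusted p = 0.0629, 0.0594, 0.0573 and 0.0801). Polr2f was higher by 0.24 (adjusted p = 0.0226), lost without shPaf1 replicate 2 or 3 (adjusted p = 0.0827 and 0.0646), after quantile normalization (0.16, adjusted p = 0.122) and in a fit of the 6 arrays alone (adjusted p = 0.0602). The calls of Polr3gl (-0.50, adjusted p = 0.0484) and Polr1a (-0.26, adjusted p = 0.0387) were lost in 12 and 11 of 18 other settings. For Polr3gl these include leaving out any 1 array other than shPhf5a replicate 2 (adjusted p from 0.0607 to 0.133, and -0.31 without shPhf5a replicate 1). For Polr1a only shPhf5a replicate 2 and shPaf1 replicate 1 could be left out without loss of the call (otherwise adjusted p = 0.0587 to 0.142). Without shPhf5a replicate 2 the counts were 12 lower and 4 higher, beside 19.2% and 13.7% of all genes. Without shPaf1 replicate 2 or 3 they were 4 lower and 2 higher (all genes 12.8% and 10.5%, or 13.7% and 10.7%). Without shPhf5a replicate 1 or 3 they were 5 lower and 3 higher (all genes 15.1% and 12.7%, or 13% and 10.4%). After centring of each array the split was 6 lower and 4 higher (all genes 14.5% and 14.2%).

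**Figure D4:**
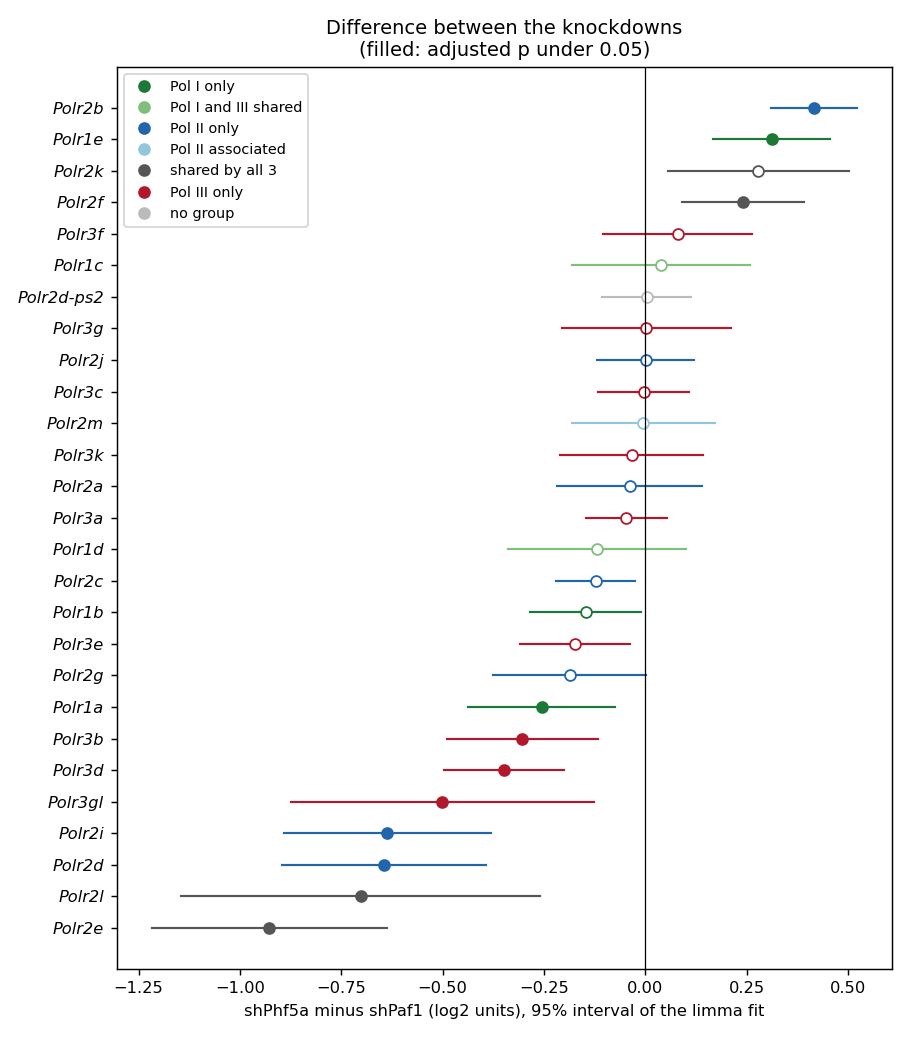
Difference between shPhf5a and shPaf1 for each of the 27 polymerase genes (x axis, log2 units), with the 95% interval of the limma fit as a line. Filled points have an adjusted p under 0.05, and colours mark the enzymes. Polr2e (-0.93) and Polr2b (0.42) stand at the ends, and Polr2a (-0.04) and Polr3g (0.00) lie near 0.

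Genes that load, assemble or switch the polymerases were read from lists taken from textbook roles. Of 10 polymerase assembly factors, the chaperones and GTPases that build the enzymes in the cytoplasm and bring them to the nucleus, 8 were lower and 1 higher in shPhf5a and 7 lower and 0 higher in shPaf1, with medians of -0.68 and -0.47 log2 units. The shares called were 90% and 70%, beside 37.4% and 35.8% of all genes and 62.1% and 59.9% of the genes above the median level. Rpap2, a phosphatase of the Pol II C-terminal domain that also escorts the enzyme, fell by 0.96 in shPhf5a (SE 0.06, adjusted p = 5.24e-06) and by 1.27 in shPaf1 (SE 0.06, adjusted p = 8.64e-07), and Pih1d1, of the chaperone complex for assembly, by 1.05 (SE 0.10, adjusted p = 3.67e-05) and by 0.74 (SE 0.10, adjusted p = 0.000222). Of 17 measured Pol II general transcription factors 12 were lower and 1 higher in shPhf5a and 11 lower and 1 higher in shPaf1, with medians of -0.22 and -0.44. Their shares called in either direction, 76.5% and 70.6%, were not far above those of the genes above the median level. More of them were lower, 12 and 11 of 17, beside 35.2% and 30.7% of the genes above the median level. Among these Gtf2f2, a subunit of the factor that binds Pol II before initiation, fell by 1.07 (SE 0.10, adjusted p = 4.34e-05) in shPhf5a and by 0.55 (SE 0.10, adjusted p = 0.00195) in shPaf1, and Gtf2h3, of the factor that opens the promoter, by 0.56 (SE 0.11, adjusted p = 0.00306) and by 0.71 (SE 0.11, adjusted p = 0.000694).

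The remaining lists were mixed. In shPhf5a and shPaf1 60% and 60% of the phosphatase and termination genes were called, 50% and 40% of the Pol I factors, and 66.7% and 46.7% of the Pol III factors. All 5 mitochondrial genes were called in both. Among all genes the shares were 37.4% and 35.8%, and among those above the median level 62.1% and 59.9%. Of 10 measured genes for phosphatases of the C-terminal domain and for termination, Rpap2 among them, 5 were lower and 1 higher in each knockdown, with medians of -0.15 and -0.11. Of 10 Pol I factors 3 were lower and 2 higher in shPhf5a and 3 lower and 1 higher in shPaf1 (medians -0.10 and -0.09). Baz2a, which silences ribosomal RNA genes, rose by 0.46 (SE 0.07, adjusted p = 0.000646) and by 0.89 (SE 0.07, adjusted p = 1.21e-05), and Taf1b, of the Pol I promoter factor, fell by 0.72 (SE 0.09, adjusted p = 0.000233) and by 0.43 (SE 0.09, adjusted p = 0.00467). Of 15 measured Pol III factors 6 were lower and 4 higher in shPhf5a and 3 lower and 4 higher in shPaf1 (medians -0.16 and 0.04). Gtf3c1, the largest subunit of the factor that recognises transfer RNA promoters, rose by 0.65 (SE 0.06, adjusted p = 5.38e-05) and by 0.70 (SE 0.06, adjusted p = 2.47e-05). Polrmt, the single-subunit polymerase of mitochondria, rose by 0.23 (SE 0.06, adjusted p = 0.00956) and by 0.54 (SE 0.06, adjusted p = 6e-05). The other 4 genes of the mitochondrial list were lower in both, Tefm by 1.08 (SE 0.10, adjusted p = 4.57e-05) and by 1.15 (SE 0.10, adjusted p = 2.38e-05). Without shPhf5a replicate 2 the counts of lower genes in shPhf5a were 5 for Pol I factors and 8 for Pol III factors, and the counts of higher genes 2 and 4, and in shPaf1 the count of lower Pol I factors was 5. The median of the Pol I factors in shPhf5a was then -0.17. Of all genes 22.4% were then lower and 17.3% higher in shPhf5a, and 19.7% were lower in shPaf1.

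**Figure D5:**
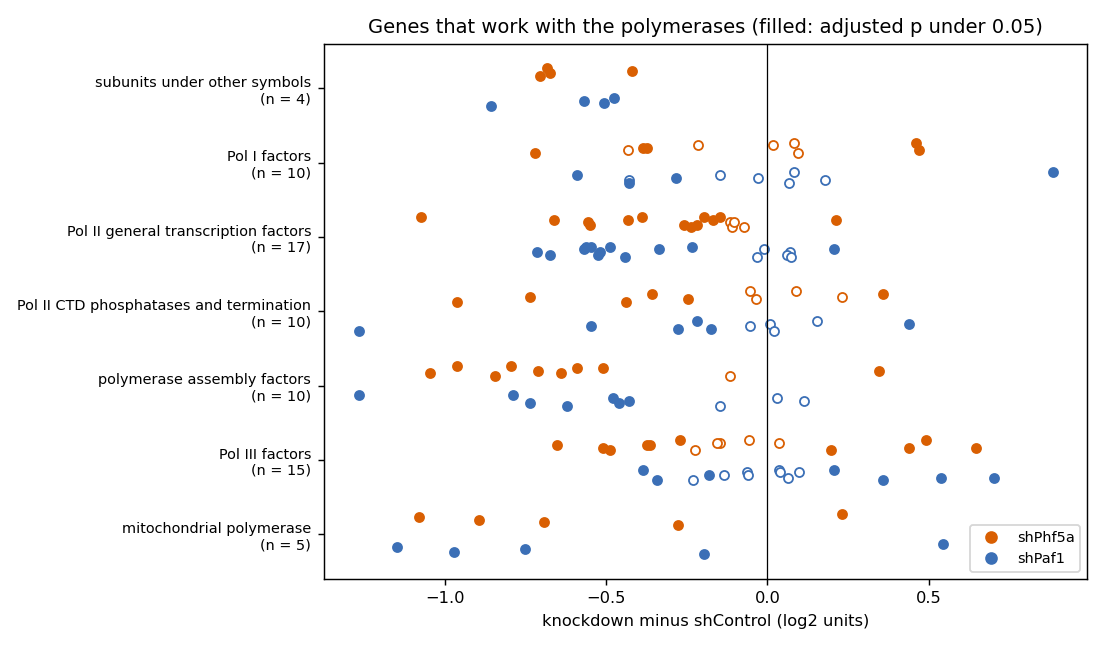
Change of each gene of 7 lists of genes that work with the polymerases (y axis) in shPhf5a and in shPaf1 against shControl (x axis, log2 units). Each point is 1 gene, filled where its adjusted p was under 0.05, and n is the number of genes measured. Points of the assembly factors lie mostly to the left of 0 in both knockdowns, and those of the Pol III factors on both sides.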

How the data were processed

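The values are log2 expression values per probe set and array, as the authors deposited them. Per the labels' protocols, cDNA from 125 ng of total RNA was labelled for whole-transcript arrays. No source used here names the software, background correction or normalization, and the log2 base was inferred from the range (4.35 to 13.7). The number of arrays limits the precision. Of 33793 probe sets 23521 had 1 symbol, 1814 several, and 8458 were not listed in the platform annotation. All 27 members matched the RefSeq gene table by gene ID with the same symbol.

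The test was limma 3.58.1 (lmFit, eBayes) in R 4.3.3 on all 22180 genes and 9 arrays, with Benjamini-Hochberg adjustment at 0.05. Intervals (95%) are unadjusted. The script was tested on simulated data for shPhf5a against shControl, with 200 of 22180 genes changed. It called 22.4% of genes changed by 0.25 log2 units, 74.6% of those changed by 0.5 and 98.5% of those changed by 1. Of 21980 unchanged genes it called 3. In the data 37.4% of all genes were called, which makes the adjusted threshold less strict. The simulated shares therefore do not give the sensitivity of the fit to the data. The members and lists were chosen with earlier results of these data known. All members could be named, and from each further list up to 4 called genes with the largest change in a comparison. The alternatives tried were centring of each array, quantile normalization, genes above the median level only, the mean over a gene's probe sets, all probe sets, a trended robust variance, array weights, the 6 arrays of a comparison, blocking on replicate number, and leaving out each array.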

Additional observations from a re-analysis of the deposited data

Results flagged for a closer look

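A probe set that carries the symbols of both Dok4 and Polr2c, and was therefore outside the members, was higher in shPhf5a by 0.48 log2 units (adjusted p = 0.00511 over all probe sets), a signal in data the comparisons do not use. Its log2 levels were 7.38, 7.31 and 7.20 in shControl, 7.93, 7.63 and 7.77 in shPhf5a, and 7.42, 7.11 and 7.30 in shPaf1, whereas the probe set of Polr2c alone fell by 0.30 in shPhf5a.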

How the results depend on the processing

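Over 18 other settings the members called lower numbered 14 to 18 in shPhf5a and 11 to 16 in shPaf1, and those called higher 3 and 3 to 4. In the settings that kept all 22180 genes, 17.2% to 24.6% of all genes were lower in shPhf5a and 15% to 23.9% in shPaf1. In shPhf5a against shPaf1, leaving out 1 array gave 4 to 12 lower and 2 to 4 higher. There 12.8% to 19.2% of all genes were lower and 10.4% to 13.7% higher. The 6 arrays alone gave 5 lower, beside 13.5% of all genes. Centring turned the medians in shPaf1 to -0.19 (Pol I), -0.24 (Pol II) and -0.064 (Pol III), and quantile normalization gave -0.075 for Pol I and -0.051 for Pol II. Leaving out 1 array moved the Pol III median in shPaf1 between -0.062 and 0.0016. Over all genes, centring gave 15.2% higher and 24.3% lower in shPhf5a, and 15.3% and 23.9% in shPaf1.

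Same-numbered arrays correlated by -0.058 to 0.11 in their deviations, so the numbers were not taken as pairs. With the replicate block the counts were 16 lower and 3 higher, 13 and 4, and 7 and 3 (shPhf5a against shPaf1). Of all genes 20.5% were lower and 16.5% higher, 17.6% and 17.8%, and 16% and 12.2%. Only Polr3gl, in shPhf5a against shPaf1, lost its call (adjusted p = 0.054).

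Uncalled values near 0 changed sign, and the cause was not tested. In shPhf5a Polr2k went to -0.027 with centring and -0.086 as the mean of its probe sets, Polr3c to 0.040 with quantile normalization and Polr3d to -0.010 with centring. In shPaf1 centring gave -0.050 for Polr2b and -0.027 for Polr3e, quantile normalization 0.063 for Polr3b and 0.0065 for Polr3c, and array weights 0.0021 for Polr3b. In shPhf5a against shPaf1 array weights gave -0.0099 for Polr1c, -0.025 for Polr2d-ps2, 0.011 for Polr2m, 0.0020 for Polr3c and -0.0070 for Polr3g. There quantile normalization gave -0.00099 for Polr2d-ps2 and 0.034 for Polr3c, and centring 0.024 for Polr2m and 0.024 for Polr3c.

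Leaving out 1 array also turned such values. In shPhf5a the ranges were -0.071 to 0.11 for Polr2k, -0.037 to 0.023 for Polr3c and -0.021 to 0.074 for Polr3d. In shPaf1 they were -0.010 to 0.033 for Polr2b, -0.15 to 0.021 for Polr2d, -0.11 to 0.072 for Polr2l, -0.062 to 0.055 for Polr3b and -0.037 to 0.020 for Polr3c. In shPhf5a against shPaf1 they were -0.085 to 0.13 for Polr1c, -0.12 to 0.043 for Polr2a, -0.014 to 0.030 for Polr2d-ps2, -0.026 to 0.043 for Polr2j, -0.078 to 0.082 for Polr2m, -0.033 to 0.028 for Polr3c, -0.10 to 0.11 for Polr3g and -0.097 to 0.029 for Polr3k.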
